A study of Mus musculus with 8 samples.

Results

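The 33 genes described here are targets of the transcription factor ATF4 and genes of amino acid synthesis and import. They were chosen by name, with earlier results of these data known, and all 33 were among the 21154 genes of the count table. They were sorted by role into 13 stress factors, 12 synthesis enzymes and 8 transporters. A filter on low counts left 15373 genes for testing, and 32 of the 33 passed it. The exception was Slc7a11.

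The RNA came from osteoblasts, the bone-forming cells, of female Col2.3-GFP mice, whose green fluorescent protein follows a fragment of the Col1a1 promoter. The sort therefore takes cells in which that fragment is active. Mice of 8 to 10 weeks were injected intravenously 4 times, a week apart, with phosphate-buffered saline (PBS, 3 libraries) or with doxorubicin at 5 mg/kg (DOX, 5 libraries). Doxorubicin is a DNA-damaging anthracycline. Tissue was taken 8 weeks after treatment, so the comparison asks what remains at that time and not what the drug does acutely. Both groups carried the reporter and went through the same marrow removal, digestion of bone chips for 25 minutes at 37 °C and sort. By the labels, PBS replicate 1 belongs to batch 1 together with DOX replicates 1 and 2, and the other 5 libraries belong to batch 2. The title of DOX replicate 1 says DOX while its treatment tag says PBS. It was counted as DOX.

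ATF4 is the main effector of the integrated stress response. Kinases that sense amino acid shortage, unfolded protein, heme shortage or double-stranded RNA phosphorylate the initiation factor eIF2, general translation drops, and translation of Atf4 mRNA goes up. ATF4 then pairs with C/EBP proteins on elements in the promoters of genes for amino acid import, amino acid synthesis and stress feedback. In osteoblasts it is known for supporting the import and synthesis of the glycine and proline that type I collagen demands. Because control of ATF4 is largely translational, the level of Atf4 mRNA is no measure of ATF4 protein.

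The core of the ATF4 element, TGATGNAA on either strand, was looked for in RefSeq promoter windows of 300 bases, from 250 before to 50 after each start. Of the 33 genes, 30 had a window and 9 of these (30%) held the core. Beside this stood 4.51% of all 27025 genes with a window, and 3.97% of all 32851 windows. By role, the core stood in 4 of 13 stress factors, 3 of 11 synthesis enzymes and 2 of 6 transporters with a window. Among the 10922 tested genes with a window, 2.63% held it. Slc7a11, which is among the 9, was not a tested gene. The match describes letters and shows no binding. The 6 stretches below belong to genes given library by library here, with each role among them. Capitals mark the core, read along the gene's strand (GRCm38.p6). For Nupr1 (chr7:126625562-126625591, minus strand) the core begins 110 bases before the start, for Vldlr (chr19:27216809-27216838, plus strand) 200, for Pycr1 (chr11:120643833-120643862, minus strand) 103 and for Asns (chr6:7693214-7693243, minus strand) 23. For Slc1a4 (chr11:20332699-20332728, minus strand) it begins 4 bases before the start and runs into the transcript. For Trib3 (chr2:152344028-152344057, minus strand) it lies just inside the transcript. In Pycr1 and Asns the core reads in the gene's own direction and in the other 4 it reads in the opposite direction.
Nupr1: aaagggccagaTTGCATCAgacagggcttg
Vldlr: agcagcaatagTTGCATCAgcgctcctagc
Trib3: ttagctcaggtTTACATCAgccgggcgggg
Pycr1: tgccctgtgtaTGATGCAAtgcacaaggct
Asns: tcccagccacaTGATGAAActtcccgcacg
Slc1a4: tgcctcctgcgTTGCATCAtctccagcctg

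Library totals ran from 39419027 to 44299591 counts. Osteoblast markers were abundant in all 8 libraries, and none of the 10 was at 0. PBS replicate 1 and DOX replicate 1 stood apart. Col1a1 and Col1a2 took 19.1% and 23.2% of their counts, against 26.0% to 39.5% in the other 6. The same pair had the highest summed erythroid markers, 157 and 111 CPM (counts scaled to library size). DOX replicate 2, the other library of batch 1, had 38.3 CPM, and the libraries of batch 2 had 2.32 to 10.8 CPM. In bulk RNA, fewer cells of a type and less RNA per cell cannot be told apart. Summed markers of adipogenic stroma were also highest in the pair and in DOX replicate 2, at 868, 564 and 526 CPM, against 153 to 515 elsewhere. The part of these cells in the results was not tested. Neutrophil markers were uneven over both groups, from 0.538 to 42.5 CPM in PBS and from 7.99 to 122 CPM in DOX. CPM values here are scaled by TMM, a factor per library set by the bulk of its genes, and the titles call the libraries biological replicates. Differences are log2 of DOX over PBS, with batch as a term.

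Between DOX and PBS osteoblasts, none of the 32 tested genes of the ATF4 program passed. The edgeR quasi-likelihood test called 0 of 32 at an adjusted p under 0.05, and 0% of all 15373 genes. At an unadjusted p under 0.05 it listed 0 of the 32, beside 3.71% of all genes. DESeq2 called 0 of the 32 as well, beside 0.0976% of all genes. At its unadjusted p under 0.05 it listed only Nupr1 (0.0383), beside 4.74% of all genes. For none of the 32 did every DOX library lie above every PBS library, or every one below, as 1.24% and 1.19% of all genes did. The fitted difference was above 0 for 22 of 32, beside 53% of all genes. Without PBS replicate 1 it was above 0 for 18 of 32 (56.2%), beside 53.4% of all genes. The median difference was 0.09 over the 32 genes and 0.02 over all genes tested.

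**Figure D1:**
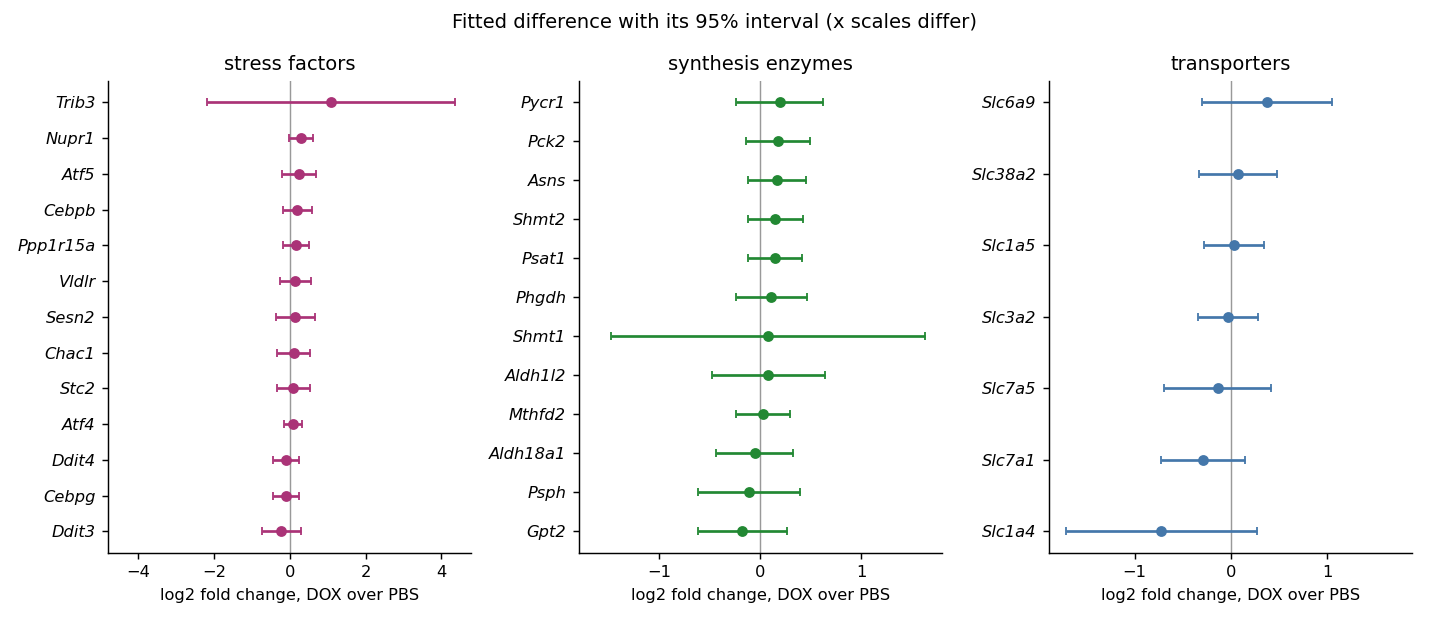
Log2 difference of DOX over PBS (x axis) for the 32 tested genes, in 1 panel a role with x scales of their own, with 95% confidence intervals from edgeR. Every interval covers 0, and the widest belong to Trib3, Shmt1 and Slc1a4.

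By CPM per kilobase of exon, a scale on which genes can be compared, the 33 genes covered a wide range. Nupr1 led with a mean level of 326 CPM per kb over the 8 libraries. Ddit4 (63.6), Atf4 (63.3), Pycr1 (40.9), Cebpb (31.1) and Aldh18a1 (30.9) followed on the same scale. At the low end stood Trib3 (0.320), Shmt1 (0.307) and Slc7a11 (0.00356). Among transporters the order was headed by Slc38a2 (24.1) and Slc3a2 (20.4). Exon lengths came from GENCODE M21, which belongs to another build than the counts, so small gaps between neighbours, such as Ddit4 and Atf4, carry no weight.

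**Figure D2:**
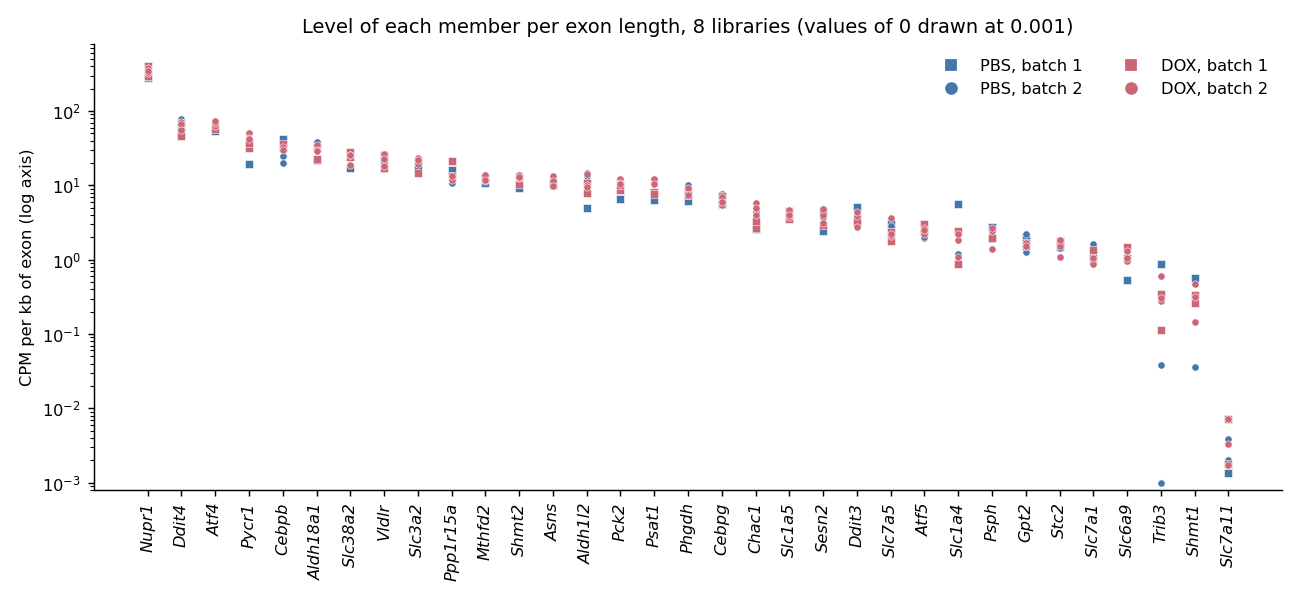
Level in CPM per kilobase of exon (y axis, log scale) of the 33 genes in order of their mean, 1 point a library (squares batch 1, circles batch 2, values of 0 drawn at 0.001). The order runs from Nupr1 at 326 to Slc7a11 at 0.00356 over all libraries, and Trib3 and Shmt1 show the widest spread between libraries of the tested genes.

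Among the 13 stress factors, 10 differences were above 0 and 3 below, with a median of 0.15. Atf4 itself stood at 128, 152 and 155 CPM in PBS replicates 1 to 3 and at 142, 135, 148, 163 and 172 CPM in DOX replicates 1 to 5. The 2 highest libraries, DOX replicates 5 and 4, were above every PBS library, and the other 3 lay within the PBS range. PBS averaged 145 ± 14.9 CPM (SD, n = 3), and DOX averaged 152 ± 15.3 CPM (SD, n = 5). The log2 difference was 0.08 ± 0.11 (SE), and its 95% interval ran from -0.16 to 0.32, which is 0.898-fold to 1.25-fold (edgeR adjusted p = 0.995).

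Nupr1 encodes a small stress-inducible chromatin protein and was the gene closest to the threshold. Its level was 698, 692 and 774 CPM in the PBS libraries and 1023, 745, 812, 963 and 858 CPM in DOX replicates 1 to 5. After TMM scaling, all DOX libraries but replicate 2 lay above every PBS library. With plain library totals as the scaling, PBS replicate 1 stood at 906 CPM. Only DOX replicates 1 (1284 plain CPM) and 4 (1006) were then above every PBS library. The difference was of like size within batch 1 (0.32) and batch 2 (0.26), and it was 0.27 without PBS replicate 1. The batch 1 value sets DOX replicates 1 (1023 CPM) and 2 (745 CPM) against 1 PBS library (698 CPM). It depends on the label of DOX replicate 1. With that library counted as PBS, the fitted log2 difference in batch 2 minus that in batch 1 was 0.49, in place of -0.08. Over all libraries the Nupr1 difference of DOX over PBS was 0.29 ± 0.14 (SE, edgeR unadjusted p = 0.0719, adjusted p = 0.995). That is 1.22-fold, with a 95% interval of 0.979 to 1.52.

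Vldlr, a lipoprotein receptor induced under ER stress, had the next highest CPM of the stress factors, and per kilobase of exon (21.2) it came after Ddit4, Atf4 and Cebpb as well. It stood at 230, 201 and 167 CPM in PBS and at 175, 254, 266, 182 and 229 CPM in DOX replicates 1 to 5. The groups overlapped over most of their range, and the difference was 0.15 ± 0.18 (SE). Without PBS replicate 1, the highest of the PBS libraries, it was 0.30.

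Trib3, a pseudokinase that feeds back on ATF4, had the largest fitted difference and the fewest counts of the stress genes. Its raw counts were 99, 3 and 0 in PBS replicates 1 to 3 and 12, 30, 24, 28 and 53 in DOX replicates 1 to 5. In CPM that is 1.86, 0.0818 and 0 against 0.242, 0.744, 0.591, 0.647 and 1.28. The PBS libraries thus held both the highest and the lowest values of all 8. In batch 2, 3 counts in PBS stood against 105 in DOX, a ratio per library total of 24.4 with an interval of 8.13 to 120. In batch 1, 99 counts in PBS stood against 42 in DOX, a ratio of 0.211 with an interval of 0.143 to 0.305. These intervals cover counting error only and not the spread between mice. Over all libraries the log2 difference was 1.09 ± 1.47 (SE), and it was 4.25 without PBS replicate 1, -0.02 without PBS replicate 2 and -0.21 without PBS replicate 3.

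The C/EBP partners of ATF4 were present in every library. Cebpb, a factor that binds DNA together with ATF4, stood at 62.7, 37.2 and 29.7 CPM in PBS and at 48.6, 54.1, 47.9, 49.1 and 44.6 CPM in DOX (chosen after its values were seen). The PBS libraries enclosed all DOX libraries, with a difference of 0.20 ± 0.17 (SE). Cebpg, the stable partner, had a difference of -0.10 ± 0.15 (SE). Atf5, a relative of ATF4 whose translation is controlled in the same way, had 0.25 ± 0.20 (SE), and Ddit3, which encodes the death-associated factor CHOP, had -0.22 ± 0.23 (SE).

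Ppp1r15a encodes GADD34, the subunit that brings the phosphatase back to eIF2. Its level was 46.8, 32.1 and 31.4 CPM in PBS and 62.1, 38.8, 35.6, 35.0 and 39.01 CPM in DOX (chosen after its values were seen). DOX replicate 1 was far above the other DOX libraries, and PBS replicate 1 was the highest in PBS. The summed level of 9 genes that respond to dissociation and handling was also highest in DOX replicate 1, at 3787 CPM. It was 1309 to 2990 CPM in the other DOX libraries and 1181 to 2182 CPM in PBS. By batch, it was 2182 to 3787 CPM in batch 1 and 1181 to 2061 CPM in batch 2. For all 9 the fitted difference of DOX over PBS was above 0, beside 53% of all genes. The part of these 9 genes in the Ppp1r15a value was not tested. The Ppp1r15a difference was 0.17 ± 0.15 (SE), and -0.04 when DOX replicate 1 was counted as PBS.

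The remaining stress factors lay between -0.10 and 0.15. They were Ddit4 and Sesn2, both inhibitors of mTORC1 signalling (-0.10 ± 0.15 and 0.15 ± 0.23, SE), Chac1, which degrades glutathione (0.11 ± 0.19), and Stc2, a secreted glycoprotein (0.10 ± 0.20). Sesn2 ranged from 8.36 to 16.7 CPM in PBS and from 10.2 to 16.6 CPM in DOX, so the groups covered nearly the same span.

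**Figure D3:**
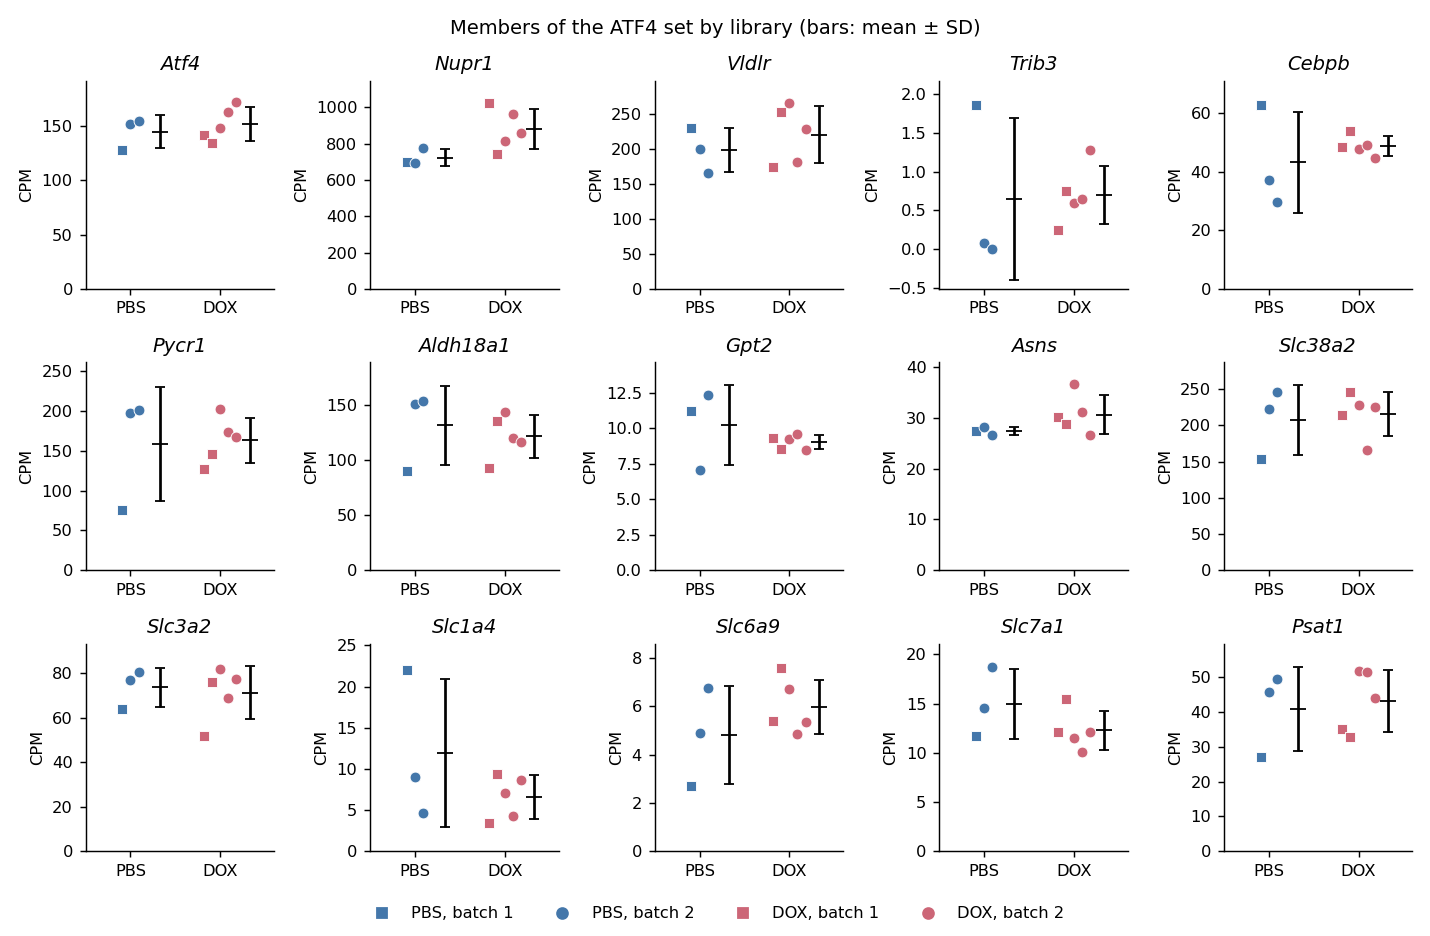
Level in CPM (y axis, from 0, and below it for Trib3, whose SD exceeds its mean in PBS) of 15 genes in each library (x axis by group), with squares for batch 1, circles for batch 2 and bars for the mean and SD of each group. Nupr1 lies above every PBS library in 4 of 5 DOX libraries, while PBS replicate 1 holds the highest Trib3 and Slc1a4 and the lowest Pycr1 and Aldh18a1. These orders are those of TMM-scaled CPM.

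The 12 synthesis enzymes had 9 differences above 0 and 3 below, all between -0.18 and 0.19, with a median of 0.09. In the proline branch, Aldh18a1 starts proline synthesis from glutamate and Pycr1 completes it in mitochondria. Pycr1 stood at 75.2, 198 and 201 CPM in PBS and at 127, 146, 202, 173 and 167 CPM in DOX replicates 1 to 5. PBS replicate 1 was the lowest library by a wide margin, DOX replicate 1 the next, and the remaining 6 lay between 146 and 202 CPM. The difference was 0.19 ± 0.19 (SE) over all libraries and -0.13 without PBS replicate 1. Aldh18a1 stood at 90.3, 151 and 154 CPM in PBS and at 93.1, 136, 144, 120 and 117 CPM in DOX. PBS replicate 1 and DOX replicate 1 were again the lowest, here close to each other. Its difference was -0.06 ± 0.17 (SE), 0.03 with library totals as the scaling, and -0.26 without PBS replicate 1.

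In the serine branch, Phgdh, Psat1 and Psph catalyse the successive steps from a glycolytic intermediate to serine. Psat1 ranged from 26.9 to 49.4 CPM in PBS and from 32.8 to 51.7 CPM in DOX, with a difference of 0.14 ± 0.12 (SE). Phgdh had 0.11 ± 0.16 (SE) and Psph -0.11 ± 0.23 (SE). The branch therefore showed no common direction.

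The mitochondrial one-carbon enzymes take serine on to glycine and formate. Shmt2, which splits serine, ranged from 28.7 to 40.5 CPM in PBS and from 32.2 to 42.4 CPM in DOX, with a difference of 0.15 ± 0.12 (SE). Mthfd2, the next enzyme, had a difference of 0.03 ± 0.12 (SE). After TMM scaling it varied least of the 32 genes, 1.26-fold from the lowest to the highest library. That rank depends on the scaling. With plain library totals Mthfd2 ran from 34.5 to 55.1 plain CPM and Aldh18a1 from 117 to 133. Aldh1l2, which oxidises formyl-folate to carbon dioxide, varied far more than Mthfd2. After TMM scaling it ran from 37.6 to 111 CPM in PBS and from 59.5 to 107 CPM in DOX, with a difference of 0.08 ± 0.25 (SE). Shmt1, the cytosolic counterpart of Shmt2, was low, at 0.142 to 2.20 CPM in PBS and 0.566 to 1.82 CPM in DOX.

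Asns makes asparagine and is a classical ATF4 target with the core element next to its start. Its level was 27.5, 28.3 and 26.6 CPM in PBS and 30.2, 28.8, 36.8, 31.1 and 26.7 CPM in DOX (chosen after its values were seen). After TMM scaling, 4 of 5 DOX libraries were above every PBS library, by a small margin in DOX replicate 2. With plain library totals as the scaling, PBS replicate 1 stood at 35.7 CPM. Of the DOX libraries only replicate 1 (37.9 plain CPM) was then above every PBS library. The difference was 0.16 ± 0.13 (SE), with a 95% interval of -0.13 to 0.45 (edgeR adjusted p = 0.995). Nupr1 and Stc2 also had 4 of 5 DOX libraries above every PBS library after TMM scaling. In Stc2, DOX replicate 4 was the lowest library. The share of all genes with 4 of 5 was not counted. Gpt2, a mitochondrial alanine transaminase, stood at 11.2, 7.06 and 12.4 CPM in PBS and at 9.36, 8.54, 9.28, 9.58 and 8.50 CPM in DOX. The DOX libraries lay close together inside the PBS range, and the difference was -0.18 ± 0.20 (SE). Pck2, the mitochondrial enzyme that makes phosphoenolpyruvate, had 0.18 ± 0.14 (SE).

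Transporters had no common direction. Of the 7 tested, 3 differences were above 0 and 4 below, with a median of -0.03. Slc38a2 (SNAT2) carries small neutral amino acids, among them proline, and was the most abundant. It stood at 154, 222 and 247 CPM in PBS and at 214, 246, 229, 166 and 225 CPM in DOX replicates 1 to 5. PBS replicate 1 was lowest and PBS replicate 3 highest, with all DOX libraries between them. The difference was 0.08 ± 0.18 (SE), and -0.17 without PBS replicate 1.

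Slc3a2 is the heavy chain that brings partners such as Slc7a5 to the membrane. Its level was 63.8, 76.9 and 80.3 CPM in PBS and 51.6, 76.2, 82.0, 68.6 and 77.5 CPM in DOX, with a difference of -0.03 ± 0.14 (SE). DOX replicate 1 was the lowest library and PBS replicate 1 the next. Slc7a5, the light chain for large neutral amino acids, had -0.14 ± 0.25 (SE). Slc1a5, a glutamine carrier, had 0.03 ± 0.14 (SE), from 16.2 to 17.6 CPM in PBS and from 14.6 to 19.6 CPM in DOX.

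Slc1a4, a carrier of alanine, serine and cysteine that is also known to serve proline uptake, had the largest difference among transporters. It stood at 22.0, 9.03 and 4.70 CPM in PBS and at 3.42, 9.45, 7.14, 4.27 and 8.69 CPM in DOX. PBS replicate 1 alone exceeded 10 CPM, and the other 7 libraries of the 2 groups were intermingled. The difference was -0.72 ± 0.45 (SE, edgeR unadjusted p = 0.135, adjusted p = 0.995), and -0.03 without PBS replicate 1. Slc6a9, the glycine transporter GlyT1, stood at 2.72, 4.91 and 6.77 CPM in PBS and at 5.40, 7.57, 6.72, 4.87 and 5.36 CPM in DOX. Here PBS replicate 1 was the lowest library, and the difference was 0.37 ± 0.30 (SE), or -0.04 without it.

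Slc7a1, the carrier of arginine and lysine, had -0.29 ± 0.20 (SE), from 11.7 to 18.8 CPM in PBS and from 10.1 to 15.5 CPM in DOX. Slc7a11, the cystine importer, was nearly silent. It had 1, 2 and 1 counts in PBS and 5, 1, 4, 2 and 1 counts in DOX, a ratio per library total of 2.01 with a counting interval of 0.621 to 8.46. No difference in Slc7a11 was detectable at this depth.

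The rest of the pathway gave the same outcome, with 0 genes called by edgeR in each of 8 lists of other pathway genes. Among 15 genes of eIF2 kinases, its phosphatase and its exchange factor, 5 differences were above 0 and 10 below, with a median of -0.04. Eif2ak4, the amino acid sensor GCN2, averaged 6.77 ± 0.499 CPM over PBS (SD, n = 3), and over DOX 5.26 ± 0.982 CPM (SD, n = 5). Every DOX library was below every PBS library, but the closest pair, 6.33 and 6.39 CPM, nearly touched, and the edgeR test gave -0.38 ± 0.21 (SE, unadjusted p = 0.105). Eif2s2, a subunit of eIF2, had the highest CPM of that list, with 0.10 ± 0.12 (SE).

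Among the 20 cytosolic aminoacyl-tRNA synthetases, 11 were above 0 and 9 below, with a median of 0.01. Sars, the seryl enzyme, had the smallest p of that list (0.24 ± 0.12, SE, edgeR unadjusted p = 0.0696), and Eprs, the glutamyl-prolyl enzyme, the highest CPM (difference -0.01 ± 0.15). Of 10 other ATF4 targets, 8 were in the table, 5 above 0 and 3 below. Xpot, the exportin of tRNA, had both the highest CPM and the smallest p (-0.26 ± 0.15, SE). Of 17 other amino acid transporters tested, 8 were above 0 and 9 below. Slc1a1, a glutamate and cysteine carrier, had -1.13 ± 0.53 (SE, edgeR unadjusted p = 0.0587), with 4.16 CPM in PBS replicate 3 and at most 1.12 CPM in the other 7 libraries. Slc36a4 had the highest CPM of them, and a difference of -0.08 ± 0.18 (SE).

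The folate cycle split evenly, 7 above 0 and 7 below. Mtr, methionine synthase, had -0.45 ± 0.21 (SE, edgeR unadjusted p = 0.0523), and Slc25a32, the mitochondrial folate carrier, -0.04 ± 0.14. Of 12 tested genes of glutamine, glutamate and proline handling, 9 were above 0 and 3 below. P4ha1, a subunit of the prolyl hydroxylase of collagen, had 0.11 ± 0.19 (SE), and Glul, glutamine synthetase, 0.26 ± 0.25. Of 16 genes by which mTORC1 senses amino acids, 11 were above 0 and 5 below. One of them, Sesn1, the p53-responsive relative of Sesn2, was the single gene of the 8 lists with an unadjusted p under 0.05 in edgeR (0.28 ± 0.10, SE, unadjusted p = 0.0210, adjusted p = 0.995). Rragc, a Rag GTPase of that list, had -0.19 ± 0.12. Of 14 genes of the ER chaperone branch, 3 were above 0 and 11 below, with a median of -0.07. Hspa5, the chaperone BiP, had -0.10 ± 0.17 (SE), and Herpud1, an ER-associated degradation factor, 0.15 ± 0.12.

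Between batches more of these genes came near the threshold than between treatment groups. The edgeR test of batch 2 against batch 1 called 0 of the 32 (0.0911% of all genes), and at an unadjusted p under 0.05 it listed 7 of 32 (21.9%), beside 14.6% of all genes. Psat1 was the closest to the threshold, 0.63 ± 0.12 (SE) higher in batch 2 (adjusted p = 0.0934). Chac1 (0.76), Pycr1 (0.74), Aldh1l2 (0.67) and Pck2 (0.42) were also listed as higher, and Ppp1r15a (-0.50) and Cebpb (-0.41) as lower. Without PBS replicate 1 the batch difference of Pycr1 was 0.40, that of Aldh1l2 0.27, that of Pck2 0.25 and that of Cebpb -0.12. Psat1 (0.53), Chac1 (0.71) and Ppp1r15a (-0.46) moved less, and 0 genes were called. After TMM scaling, Psat1 CPM was 26.9, 35.1 and 32.8 in the 3 libraries of batch 1. It was 43.8 to 51.7 in the 5 libraries of batch 2, without overlap. With plain library totals the batches overlapped in Psat1. DOX replicate 1 (44.1 plain CPM) was then above PBS replicates 2 (37.8) and 3 (39.8). Chac1 did not overlap under either scaling, with 4.30 to 5.38 CPM in batch 1 and 6.56 to 9.50 CPM in batch 2 after TMM. The share of all genes without overlap between batches was not counted. Leaving out DOX replicate 2 moved the batch calls from 14 to 938 genes and from 0 to 4 of the 32. The 938 were out of 15167 genes tested in that fit. The 4 were Aldh18a1 (adjusted p = 0.0373), Psat1 (0.0337), Pycr1 (0.0364) and Ppp1r15a (0.0221). Batch 1 then consisted of PBS replicate 1 and DOX replicate 1 alone, the pair of low collagen share, so the batch and that pair cannot be told apart in that fit.

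Whether the DOX difference itself differed between batches was tested as an interaction in edgeR. It called 0 of the 32 and 0% of all genes. At an unadjusted p under 0.05 it listed 9 of 32 (28.1%), beside 11.7% of all genes. The smallest p belonged to Pycr1 (batch 2 minus batch 1, -1.004 ± 0.24, SE, unadjusted p = 0.00234, adjusted p = 0.232), Trib3 (6.16 ± 1.62, unadjusted p = 0.00400) and Aldh1l2 (-1.23 ± 0.35, unadjusted p = 0.00648). Cebpb (0.78), Slc6a9 (-1.30), Slc38a2 (-0.77), Cebpg (-0.63), Slc7a1 (-0.81) and Slc1a4 (1.74) made up the rest. All 9 values rest on PBS replicate 1, the single PBS library of batch 1.

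Within batch 1, the synthesis enzymes had a median difference of 0.32 with 9 of 12 above 0, beside 49.9% of all genes. Within batch 2 their median was -0.02 with 5 of 12 above 0, beside 51.7% of all genes. Pycr1 went from 0.86 in batch 1 to -0.15 in batch 2 and Aldh1l2 from 0.89 to -0.34. The stress factors had medians of 0.11 and 0.07, with Atf4 at 0.11 and 0.07. Of the 32 genes, 18 had opposite signs in the 2 batches, beside 56.9% of all genes, which is nearly the same share.

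**Figure D4:**
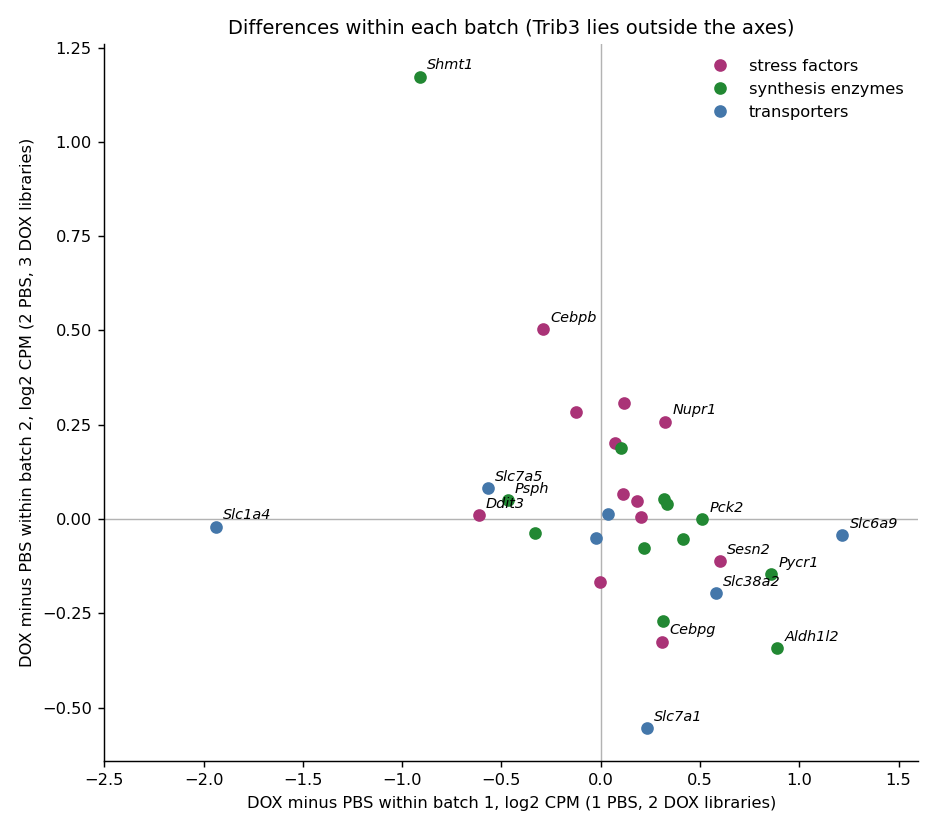
Log2 CPM difference of DOX minus PBS within batch 1 (x axis) and within batch 2 (y axis), 1 point a gene by role. Pycr1 and Aldh1l2 lie to the right of 0 and below 0, Nupr1 is above 0 in both, and Trib3 (-1.99 and 3.43) lies outside the axes.

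In batch 2 alone, with 2 PBS and 3 DOX libraries, edgeR called 0 of the 32. An unadjusted p under 0.05 was found for 4 of 32, a share close to the 12.8% of all genes. They were Cebpb (0.50, unadjusted p = 0.00503), Slc7a1 (-0.56, unadjusted p = 0.00923), Cebpg (-0.31, unadjusted p = 0.0449) and Trib3 (4.24, unadjusted p = 0.00456). Cebpb in batch 2 was 37.2 and 29.7 CPM in PBS and 44.6 to 49.1 CPM in DOX, without overlap. In batch 1, PBS replicate 1 (62.7 CPM) was above both DOX libraries. The share of all genes without overlap in batch 2 was not counted, so the Cebpb order there has no background to be set against.

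PBS replicate 1 was the lowest library for 13 of 32 genes, beside 19.2% of all genes, and for 8 of the 12 synthesis enzymes. It was the highest library for 2 other enzymes, Psph and Shmt1. PBS replicate 1 and DOX replicate 1 together were below the other 6 libraries for 8 of 32 genes, beside 12.6% of all genes. These were Chac1, Sesn2, Shmt2, Aldh1l2, Aldh18a1, Pycr1, Pck2 and Slc3a2. The pair was above the other 6 for Ppp1r15a alone, beside 11.2% of all genes. By role, the pair was lowest for 5 of 12 synthesis enzymes, 2 of 13 stress factors and 1 of 7 transporters. In the lists of other pathway genes, the pair was lowest for 12 of 20 tRNA synthetases, 6 of 12 genes of glutamine, glutamate and proline handling, 4 of 17 other transporters and 4 of 14 ER chaperone genes. It was lowest for 2 of 15 eIF2 genes, 2 of 16 mTORC1 genes, 0 of 8 other ATF4 targets and 0 of 14 folate genes. P4ha1 stood at 207 and 237 CPM in the pair and at 377 to 447 CPM in the other 6 libraries. These are the libraries with the lowest share of type I collagen counts, 19.1% and 23.2%.

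That order depends on how libraries are scaled. TMM scaling factors were 1.30 and 1.26 in the pair and 0.806 to 1.05 elsewhere. With plain library totals as the scaling, the pair was lowest for 1 of 32 genes, Aldh18a1, beside 1.71% of all genes, and highest for 11, beside 38.4%. The tRNA synthetases with the pair lowest then numbered 0 of 20, and the genes of glutamine, glutamate and proline handling 2 of 12. Atf4 shows the shift. Its plain CPM was 166, 126 and 125 in PBS replicates 1 to 3, so the library that was lowest after TMM was highest before it. Aldh18a1 and Pycr1 in PBS replicate 1 stayed the lowest or next to lowest under plain totals (117 and 97.7 plain CPM, against 117 to 133 and 136 to 186 in the other libraries). Aldh1l2 (48.9 against 73.4 to 98.3 plain CPM) and Slc6a9 (3.54 against 4.06 to 7.07) were also lowest in PBS replicate 1.

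**Figure D5:**
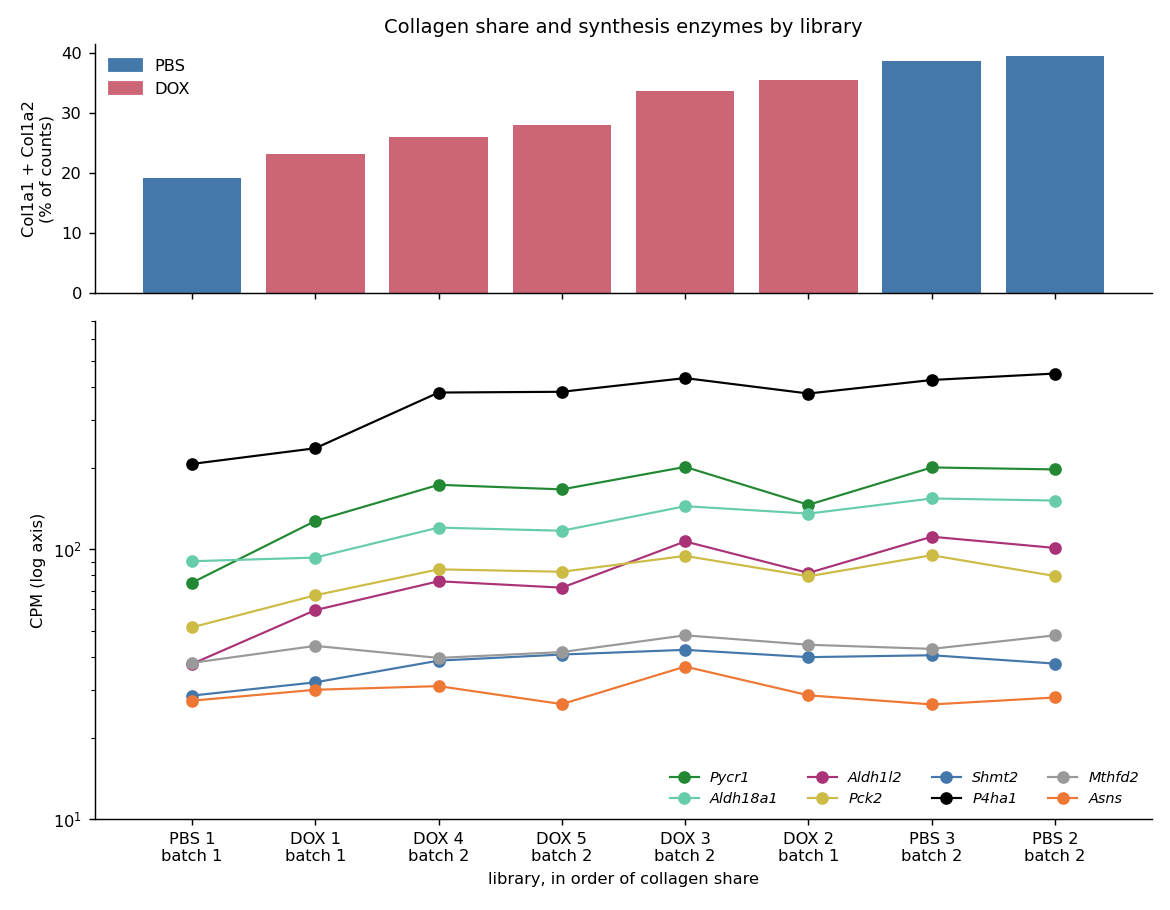
Upper panel, share of counts from Col1a1 and Col1a2 (y axis, percent) in each library (x axis, in order of that share); lower panel, level in CPM (y axis, log scale) of 7 synthesis enzymes and P4ha1 in the same libraries. Pycr1, Aldh1l2, Aldh18a1 and P4ha1 are lowest in PBS replicate 1 and DOX replicate 1, the 2 libraries with the lowest collagen share, and this order holds for TMM-scaled CPM.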

How the data were processed

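Messenger RNA of sorted osteoblasts was converted to cDNA with the SMART-Seq v4 Plus kit, per the labels' protocols, which does not mark strand and names no molecular identifiers, so counting intervals cover counting error only. The authors deposited raw counts per gene symbol, 1 column a library, and the smallest total of a gene was 10. Among the tools named in the submitters' processing notes were STAR 2.7.9a, featureCounts 2.0.1 and Trim Galore 0.6.6, and the build named was GRCm39. Not given in the sources used here are the annotation, the strand setting and the treatment of multimapping reads. Overlapping genes therefore cannot be told apart.

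Counts were tested in edgeR 4.0.16 (R 4.3.3) by the quasi-likelihood test with TMM scaling, filterByExpr and terms for batch and group, two-sided, with Benjamini-Hochberg adjustment over 15373 genes and a threshold of 0.05. Batch and interaction terms were tested in the same way. Standard errors are the absolute log2 difference divided by the root of F. Log2 CPM carries a prior count of 2. DESeq2 1.42.0 was an alternative, and the script was tested on simulated data. Other alternatives were other scalings, no filter, no batch term, the replicate number as a block, batch 2 alone, DOX replicate 1 as PBS, and each library left out. After the data were seen, 2 more were added: library totals as scaling, and PBS replicate 1 and DOX replicate 1 left out together. Values in every library are given for Atf4 and, by role, the 2 genes of largest difference and the 2 of highest level. Members and lists were chosen with earlier results of these data known. Exon lengths (GENCODE M21) and promoters (RefSeq) are of GRCm38. Intervals of count ratios are exact. No pair of libraries was near sampling noise: the closest pair had a median chi-square 10.8 times as large.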

Additional observations from a re-analysis of the deposited data

Results flagged for a closer look

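Ppp1r15a, which encodes GADD34, stood at 62.06 CPM in DOX replicate 1, far from the other DOX libraries (35.0 to 39.01 CPM). The gap to the nearest was 0.853 of the range of the 5 libraries, above the critical value of 0.71. Of 33 genes examined this was the only one to stand out in this way, and chance alone gives about 1 in 20. The same library had the highest summed level of dissociation and handling genes, 3787 CPM, and its title and treatment tag disagree. Their part in the value was not tested.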

How the results depend on the processing

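With 3 PBS libraries, 1 of them the only PBS library of batch 1, small differences could not be resolved. Over 17 alternatives, 0 of the members were called between DOX and PBS, and the medians of the 3 roles moved by less than the spread between libraries. That spread was 0.152 for stress factors, 0.136 for synthesis enzymes and 0.212 for transporters. The medians themselves were 0.147, 0.094 and -0.031. A median could therefore change sign and still count as unmoved, so the comparison does not show that the medians are stable. The sign held in all 17 for 9 members and turned in at least 1 for 23, in 58 of 544 values.

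DESeq2 called 15 genes and no member. Without the batch term Shmt1 was -0.037 and Aldh1l2 -0.072. With DOX replicate 1 counted as PBS, Ddit4 was 0.040, Ppp1r15a -0.041, Mthfd2 -0.0099, Aldh18a1 0.034, Slc7a5 0.063 and Slc3a2 0.11, and 5 genes were called between batches. In batch 2 alone Ddit3 was 0.024, Sesn2 -0.10, Phgdh -0.052, Psph 0.11, Mthfd2 -0.071, Aldh1l2 -0.32, Pycr1 -0.14, Slc7a5 0.12, Slc38a2 -0.18 and Slc6a9 -0.042. With library totals as scaling, Aldh18a1 was 0.027 and Slc3a2 0.040, and the median of all genes was 0.11 in place of 0.02. The causes were not tested.

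The replicate numbers did not pair the samples: correlations of deviations were 0.248, -0.0540 and 0.245 for numbers 1 to 3. With the replicate block 0 genes were called, 468 had an unadjusted p under 0.05, and Atf4 was -0.030, Cebpg 0.014, Chac1 -0.053 and Psat1 -0.0087.

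With libraries left out in turn, differences that changed sign ranged as follows. Ddit3 ran from -0.39 to 0.028, Trib3 from -0.21 to 4.25, Sesn2 from -0.10 to 0.33, Stc2 from -0.011 to 0.22, Phgdh from -0.053 to 0.26, Psph from -0.24 to 0.11 and Shmt1 from -0.52 to 0.76. Mthfd2 ran from -0.072 to 0.10, Aldh1l2 from -0.32 to 0.24, Aldh18a1 from -0.26 to 0.011, Pycr1 from -0.14 to 0.30 and Gpt2 from -0.39 to 0.015. Slc7a5 ran from -0.34 to 0.12, Slc3a2 from -0.12 to 0.040, Slc1a5 from -0.031 to 0.077, Slc38a2 from -0.18 to 0.20 and Slc6a9 from -0.044 to 0.66. Genes called between batches ran from 0 to 938, members from 0 to 4, and genes called in the interaction from 0 to 58. Leaving out PBS replicate 1 left no interaction to estimate. A lone PBS or DOX library in a batch is assumed to vary like the others.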
